A study of Mus musculus with 10 samples.

Results

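Gene expression in quadriceps muscle of the DBA strain was set against that of the BALB strain on the 1 array, of 10 in the series, that hybridised both. RNA of the second DBA animal (DBA 2) carried Cy5 and RNA of the first BALB animal (BALB 1) carried Cy3. The DBA mice were DBA/2OlaHsd and the BALB mice were BALB/cOlaHsd, both untreated, wildtype inbred males. They came to the laboratory aged 6 weeks, and their muscle was taken when they were 8 weeks old. The series holds 2 such males of each of 5 strains, the others being C57Bl/6JOlaHsd (BL6), C57Bl/10ScSnOlaHsd (BL10) and CBA/CaOlaHsd (CBA), and every animal is on 2 arrays, once in each dye. Mice of an inbred strain are close to genetically identical.

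The study asked how far the genetic background alone sets expression in muscle. The quadriceps is a large hindlimb muscle made mostly of fast fibres. In each fibre, thin filaments of actin are anchored at the Z-disc, and thick filaments of myosin are held together at the M-band. Fast fibres draw on glycolysis and glycogen for short effort, while mitochondria supply the respiratory chain. Fat cells, fibroblasts, vessels, nerve and blood lie between the fibres and contribute RNA of their own. A ratio of 2 dyes in bulk tissue cannot separate fewer cells of a type from less RNA per cell, nor can it show that a marker is absent.

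A single array gives the difference of 2 animals with the dye effect of each gene mixed in. The dye effect was therefore taken from an array of DBA 1 in Cy5 against BL6 1 and an array of BL6 1 in Cy5 against DBA 2, as 0.5 times their sum, and was subtracted. Because these arrays hold different DBA animals, the corrected value equals 1.5 times DBA 2, less 0.5 times DBA 1, less BALB 1. The value is called the direct value below. A second route, the path through BL10, subtracts the array of BL10 2 against DBA 1 from the array of BL10 1 against BALB 2. It sets DBA 1 against BALB 2, the dye cancels in it, and it also takes in the difference of the 2 BL10 animals. The last route, the path through BL6, comes down to the array of DBA 1 over BL6 1 less the array of BALB 2 over BL6 2. It holds the same DBA and BALB animals as the path through BL10, with the difference of the 2 BL6 animals, so these paths are not separate evidence. Neither path is free of the direct value, because DBA 1 enters all 3 routes, at −0.5 in the direct value and at 1 in each path. The path through BL6 also shares the whole array of DBA 1 over BL6 1 with the direct value, again at 1 and at −0.5. A high ratio on that array thus raises the path through BL6 and lowers the direct value. For this reason the routes are set side by side, and no correlation or share of equal signs between them is given. A fit of all 5 strains on 8 arrays (the strain fit) joins these routes and gives the error, with 2 animals per strain. In that fit the direct array had a weight of 0.441, the arrays through BL10 of 0.25 and −0.25, and the array of BALB 2 against BL6 2 of −0.309. All values are differences on the log2 scale, DBA minus BALB, so that a negative value means less RNA in DBA.

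The table holds 15552 spots, which make 7697 features once duplicate spots and the copies of 1 control oligonucleotide are averaged. Within the 10 arrays the duplicate spots correlated at r = 0.645 to 0.857 across features, and on the array of DBA 2 against BALB 1 at 0.812, which is a description of spots on the same slide. The difference of its duplicate spots had an SD of 0.354. The control oligonucleotide for Gapdh, a glycolytic enzyme, had a direct value of −0.19 and a fitted value of −0.13. Arrays of BL6 2 against CBA 1 and of BALB 1 against CBA 2 hold identical values under different labels and were left out of the fit. None of the 3 routes uses them.

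In the strain fit 0 of 7697 features passed the false discovery rate of 10% (limma's moderated test with Benjamini-Hochberg adjustment), a share of 0%. At an unadjusted p under 0.05, 405 features (5.26%) stood apart, where 5% would do so by chance alone. DBA was lower in 219 of them (2.85%) and higher in 186 (2.42%). An ordinary test without shared spread also gave 0 features at the 10% rate and 340 at an unadjusted p under 0.05. Leaving out 1 animal with its arrays gave 2735 features without BALB 2, 1828 without DBA 1, 14 without BL10 1 or BL10 2 and 11 without BL6 1, each with 1 residual degree of freedom, and 0 without any other animal. The smallest adjusted p was 0.365, of an unnamed feature at −1.27 ± 0.18 (SE) in the fit, with a direct value of −1.75 and −1.15 through BL10. Fhl3 had the next, at 0.647. The named features other than Fhl3 all had adjusted p of 0.854 or higher, and what follows therefore describes values, not calls.

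Of the features with the smallest p, Fhl3, Apobec2 and Smpx gave like values on the 3 routes, and all encode proteins of striated muscle. A small p in a fit that joins the 3 routes needs values that lie close together. Likeness of the routes, and stability when an animal is left out, thus follow in part from the choice by p. Without BALB 2 the fitted value equals the direct value, and without BALB 1 or DBA 2 the direct array drops out. Ranges over left-out animals therefore largely restate the routes and are not a separate check. The promoters of Fhl3, Apobec2 and Smpx are shown as those of the genes of smallest p that had 1 promoter entry in RefSeq. These genes were lower in DBA on every route, and their fitted values stayed within 1.5 times when any animal was left out. The sequence is that of RefSeq for GRCm38.p6, which is C57BL/6J and neither of the strains compared, and covers 300 bases that end 50 bases after the annotated start of the gene, 5′ to 3′ on its strand. Capitals mark an E-box, CANNTG, the site of myogenic helix-loop-helix factors, or a TATA box, TATAAA, and the MEF2 consensus of muscle promoters was also searched on both strands.
Fhl3, chr4:124700449-124700748, plus strand: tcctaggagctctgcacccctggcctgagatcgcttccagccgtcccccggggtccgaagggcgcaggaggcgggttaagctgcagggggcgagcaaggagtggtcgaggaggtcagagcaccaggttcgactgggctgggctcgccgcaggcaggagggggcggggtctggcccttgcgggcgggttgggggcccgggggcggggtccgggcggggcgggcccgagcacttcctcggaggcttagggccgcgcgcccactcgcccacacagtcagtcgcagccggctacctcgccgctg
Apobec2, chr17:48432679-48432978, minus strand: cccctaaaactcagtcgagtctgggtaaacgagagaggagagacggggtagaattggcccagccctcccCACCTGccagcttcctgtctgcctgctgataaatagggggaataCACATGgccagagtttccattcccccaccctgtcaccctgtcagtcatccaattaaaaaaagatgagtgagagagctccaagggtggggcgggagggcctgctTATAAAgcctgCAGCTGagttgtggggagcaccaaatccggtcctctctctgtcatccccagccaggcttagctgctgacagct
Smpx, chrX:157698723-157699022, plus strand: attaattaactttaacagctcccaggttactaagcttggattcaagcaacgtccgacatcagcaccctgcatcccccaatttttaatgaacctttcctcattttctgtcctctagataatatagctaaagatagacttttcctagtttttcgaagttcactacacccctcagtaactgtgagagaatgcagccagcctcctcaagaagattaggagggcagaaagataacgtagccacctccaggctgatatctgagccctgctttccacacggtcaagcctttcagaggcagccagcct
The window of Apobec2 held 3 E-boxes and 1 TATA box, and those of Fhl3 and Smpx held neither. No window held the MEF2 consensus. Of 32851 mouse promoter windows of this length, 72.3% held an E-box, 13.6% the TATA box and 3.19% the MEF2 consensus. These matches describe letters only, and variants of DBA or BALB in the windows were not analysed here.

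Fhl3 (NM_010213) encodes a LIM-domain protein found in skeletal muscle. It had a centred log2 ratio of −0.75 on the array of DBA 2 over BALB 1. The ratio was −0.23 for DBA 1 over BL6 1, 0.73 for BL6 1 over DBA 2, 0.63 for BL10 2 over DBA 1, −0.39 for BL10 1 over BALB 2 and 0.42 for BALB 2 over BL6 2. The DBA animals were thus on the low side of all 4 arrays that held them, in either dye. The direct value was −1.002, with −1.06 and −0.93 in its 2 spots, the path through BL10 gave −1.01 and the path through BL6 −0.65. The fitted difference was −0.88 ± 0.14 (SE), with a 95% confidence interval from −1.20 to −0.55. Leaving out any 1 animal left it between −1.002, which is the direct value again, and −0.80.

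Apobec2 (NM_009694), a member of the cytidine deaminase family made in striated muscle, had ratios of −0.79 for DBA 2 over BALB 1, −1.24 for BL10 1 over BALB 2 and 1.58 for BALB 2 over BL6 2. BALB was the higher side on each of these 3 arrays. The DBA animals had ratios of 0.76 and −0.72 on the dye-swapped arrays with BL6 1, which put DBA above BL6 in both dyes. The direct value was −0.81, the path through BL10 gave −0.68 and the path through BL6 −0.82. The fitted difference was −0.81 ± 0.16 (SE), and −0.82 to −0.78 with any 1 animal left out. Smpx (AJ245772), a small protein tied to the muscle membrane and cytoskeleton, had a ratio of only −0.21 on the direct array. Its dye effect of 0.62 brought the direct value to −0.83, beside −0.73 through BL10, −0.79 through BL6 and −0.83 ± 0.17 (SE) in the fit. Of the 69 features named in the text, 10 stayed within 1.5 times their fitted value when any 1 animal was left out. These were Fhl3, Apobec2, Smpx, Sypl, Lgals1, Cyp11a1, Bcl6b, Pvalb, Chrne and Sntb2. The other 59 moved further, and 39 of the 69 kept their sign.

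**Figure D1:**
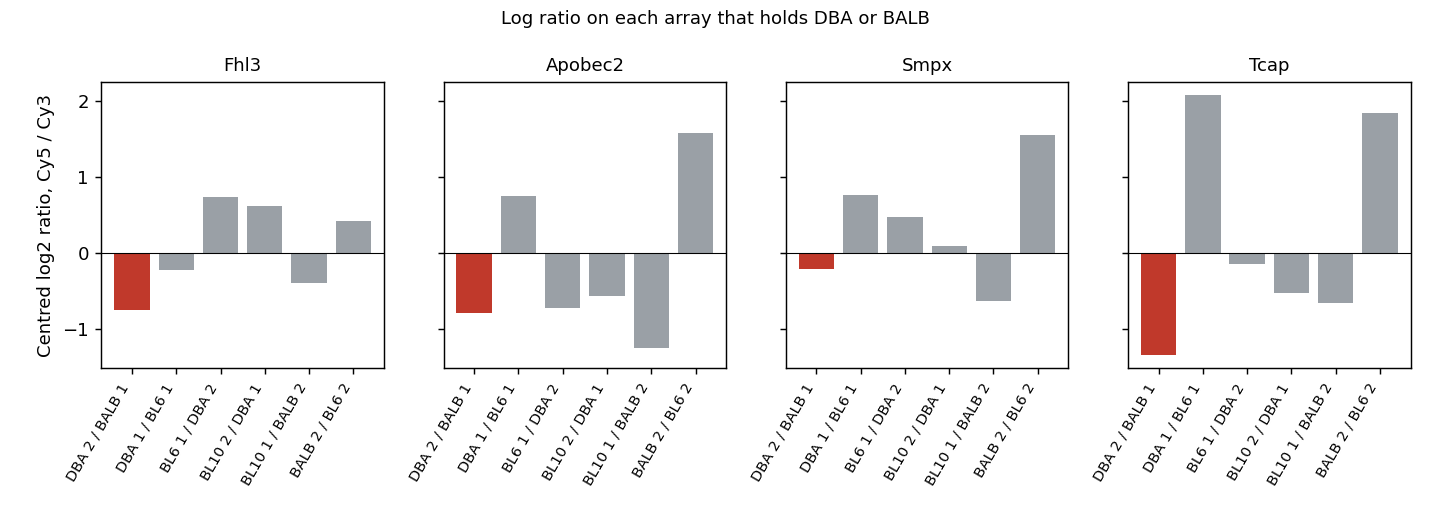
Centred log2 ratio of Cy5 over Cy3 (y axis) on each of the 6 arrays that hold a DBA or a BALB animal in the fit, for Fhl3, Apobec2, Smpx and Tcap. Each bar is the mean of the duplicate spots of 1 array, and red marks the array of DBA 2 against BALB 1. Fhl3 is low on every side that carries DBA, Apobec2 is high on every side that carries BALB, and Tcap, at −1.35 on the direct array, reaches 2.08 in DBA 1 over BL6 1 and 1.85 in BALB 2 over BL6 2.

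A few more features of small p were alike on the routes, which the choice by p favours. They were chosen for naming with their values in view. Sypl, a membrane protein of transport vesicles, had a direct value of −0.69, −0.59 through BL10, −0.77 through BL6 and −0.68 ± 0.13 (SE) in the fit. Lgals1, which encodes a galectin made by muscle and connective tissue, stood at −0.47, −0.57, −0.96 and −0.65 ± 0.14 (SE) in the same order. Sorbs3, the adaptor vinexin, had a fitted difference of −0.69 ± 0.15 (SE), but its 2 direct spots were far apart at −0.45 and −1.52. Bnip3, a receptor that marks mitochondria for removal, had −1.51 on the direct array and only −0.47 and −0.19 on the paths, with −0.84 ± 0.21 (SE) in the fit. On the side of DBA, Cyp11a1, the enzyme that opens steroid synthesis, stood at 0.66 directly and 0.54 ± 0.13 (SE) in the fit. Bcl6b, a transcriptional repressor, stood at 0.74 directly and 0.56 ± 0.14 (SE) in the fit. Both were above 0 on all 3 routes, at 0.45 and 0.50 through BL10.

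On the direct array alone, 124 features (1.61%) lay below −1 in both spots and 38 (0.494%) lay above 1 in both. These shares are of all features, and with 1 array they carry no test. A further 470 features passed 1 in only 1 of their spots, and 1915 features, 24.9%, had spots of opposite sign. Over all features the corrected spots correlated at r = 0.673. The split of higher and lower features depended on the dye: without subtracting it, 286 features passed, 256 of them lower. With the dye from the strain fit in its place, 48 passed, 44 of them lower. Of the 20 features with the largest named values in both directions, 11 moved by over 1.5 times with no dye subtracted and 2, Scd1 and Qk, with the dye from the fit.

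**Figure D2:**
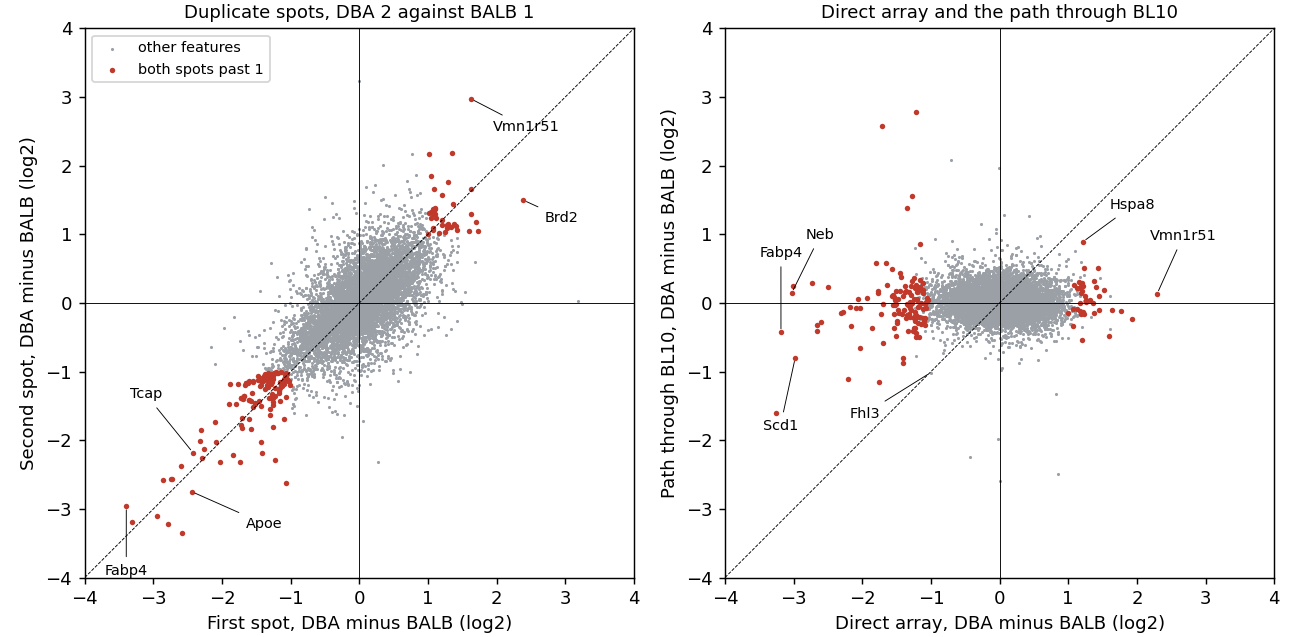
Left, the dye-corrected DBA minus BALB difference (log2) of the first spot (x axis) against the second spot (y axis) of the direct array. Right, the direct value (x axis) against the path through BL10 (y axis, log2), which uses other arrays and shares DBA 1 with the direct value through the dye. Each point is 1 of 7697 features, red points are the 162 features past 1 in both spots, and the dashed line marks equal values. The red points follow the line on the left and lie near 0 on the y axis on the right, with a median of −0.03 for those below −1 and 0.04 for those above 1.

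The large direct values were mostly not met again on the path through BL10, which shares DBA 1 with the direct value. The 124 lower features had a median of −1.35 directly, −0.03 through BL10 and −0.53 in the fit. The 38 higher features had a median of 1.22 directly, 0.04 through BL10 and 0.42 in the fit. The fit holds the array these features were picked on, at a weight of 0.441, so the fitted medians carry that choice over. The spots of the path through BL10 correlated at r = 0.252 across features, and its SD over the features was 0.227 against 0.476 for the direct value. The path through BL10 had 13 features past 1 in both of its own spots. Among them Nme2, a nucleoside diphosphate kinase, stood at 2.79 on that path and −1.22 directly, and Fhit, a hydrolase encoded at a fragile site, at 2.57 and −1.71, both named after their values were seen.

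Nebulin (Neb), the giant protein that runs along the thin filament, is on the array with 4 features. All 4 were lower in DBA 2 than in BALB 1 on the direct array. On the array of BL6 1 over DBA 2 their ratios were −0.55, −1.19, −1.23 and −0.19, which put DBA 2 on the higher side there. The feature AF203899 had a ratio of −1.61 for DBA 2 over BALB 1, 3.39 for DBA 1 over BL6 1, −0.55 for BL6 1 over DBA 2 and 1.70 for BALB 2 over BL6 2. The dye effect taken from the swapped pair was 1.42, so nearly as large as the ratio itself, and without subtracting it the values of AF203899 and AF203898 were −1.61 and −1.65. The direct values of the 4 features were −3.03, −2.66, −2.65 and −2.17. Through BL10 they were 0.14, −0.41, −0.32 and −0.33. Through BL6 they were 1.69, 1.21, 0.23 and −0.36. The fitted differences were −0.77 ± 0.58, −0.90 ± 0.48, −1.17 ± 0.38 and −1.13 ± 0.29 (SE). Values below −2 were thus seen for nebulin on the direct route only. Below 0 were 3 of the 4 features through BL10 and 1 of the 4 through BL6. Leaving out 1 animal moved the fitted values widely, from −3.03 without BALB 2 to 0.91 without BALB 1 for AF203899, from −2.66 to 0.38 for AF203898, from −2.65 to −0.035 for X70032 and from −2.17 to −0.26 for U58108, the last without BL6 1.

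Telethonin (Tcap), which caps titin at the Z-disc, had a direct value of −2.31 with spots at −2.42 and −2.18. It stood at −0.14 through BL10, 0.23 through BL6 and −0.96 ± 0.36 (SE) in the fit. Without subtracting the dye Tcap stood at −1.35, and the fitted value went from −2.31 without BALB 2 to 0.093 without BALB 1. Pdlim5, a PDZ and LIM protein of the Z-disc, stood at −2.73 directly and 0.29 through BL10. Atp5md, a small subunit of the mitochondrial ATP synthase, stood at −3.01 directly and 0.25 through BL10. Glul, glutamine synthetase, stood at −2.49 directly and 0.24 through BL10. For these 3 genes the sign turned between the routes, and their fitted differences were −0.998 ± 0.44, −1.07 ± 0.50 and −0.88 ± 0.43 (SE). Those fitted values too turned above 0 without BALB 1, at 0.35, 0.44 and 0.40, and Glul stood at −1.60 with no dye subtracted.

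Some genes of the fatty acid and lipid group also had low direct values. Fabp4, the fatty acid binding protein of fat cells, had a direct value of −3.19, the lowest of the named features, with −3.40 and −2.96 in its spots. Scd1, the desaturase of stearoyl-CoA, stood at −2.98 directly, and Apoe, the apolipoprotein E, at −2.60. Without subtracting the dye these were −1.96, −1.79 and −2.57, and with the dye from the strain fit Scd1 stood at −1.66. Fasn, fatty acid synthase, stood at −2.20, Acaca, acetyl-CoA carboxylase, at −1.70, and Me1, the malic enzyme that supplies NADPH for lipid synthesis, which was in the strain allele group, at −1.41. With the dye from the fit Fasn stood at −1.06, and with no dye subtracted Acaca stood at −1.13. All 6 were also below 0 through BL10, at −0.43 for Fabp4, −0.80 for Scd1, −0.28 for Apoe, −1.11 for Fasn, −0.59 for Acaca and −0.88 for Me1. Fasn and Acaca were named after their values were seen, so the 6 genes are a selection.

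Through BL6 the same genes were above 0, at 1.63 for Fabp4, 3.70 for Scd1, 0.48 for Apoe, 3.78 for Fasn, 0.98 for Acaca and 0.79 for Me1. This path uses the array of BALB 2 over BL6 2, where Scd1 had a ratio of −2.20 and Fasn of −2.99. It also uses the array of DBA 1 over BL6 1, where the 6 genes had ratios from 0.29 for Apoe to 2.06 for Fabp4. That array enters the direct value with the opposite sign, so opposite signs of these routes are in part built in. The fit joined these opposite routes to −0.12 ± 1.11 for Scd1, 0.17 ± 1.07 for Fasn and −0.90 ± 0.67 for Fabp4 (SE). Without BALB 1 these were 1.89, 1.76 and 0.79, and without BALB 2 they were −2.98, −2.20 and −3.19. The SE of Scd1 was the largest of all features, against a median of 0.150. Of the fat cell markers, 3 of 6 were measured, and their median was −2.98 directly, with a range from −3.19 to −0.49, and −0.43 through BL10. Adiponectin (Adipoq), a hormone of fat cells, stood at −0.49 directly, −0.24 through BL10 and −0.25 ± 0.15 (SE) in the fit. The part of fat tissue in the low lipid genes was not tested.

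Markers of other cells also differed on the direct array. Of the fibroblast markers 3 of 4 were measured, with Dcn, the proteoglycan decorin, at −1.77, Col3a1, a fibrillar collagen, at −1.27 and Col1a1 at −0.01. Through BL10 Dcn and Col3a1 stood at 0.17 and 0.00. Of the erythroid markers 2 of 5 were measured, and they went opposite ways on the direct array. Hba-a1, a globin, stood at −0.43 directly and −2.25 through BL10, and Alas2 at 0.52 and −0.13. The median of the measured markers of muscle fibres, 7 of 9, was −0.36 directly and 0.17 through BL10. It was 0.15 for endothelium with 4 of 4 markers, 0.24 for leukocytes with 4 of 6, −0.86 for Schwann cells and nerve with 2 of 4, and 0.47 for tendon with 3 of 4, all directly. Through BL10 these medians were −0.05, −0.06, 0.29 and 0.30 in the same order. The features of Mbp, a nerve marker, were apart at −0.08 and −1.13 directly. The part of these cells in the values of other genes was not tested.

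**Figure D3:**
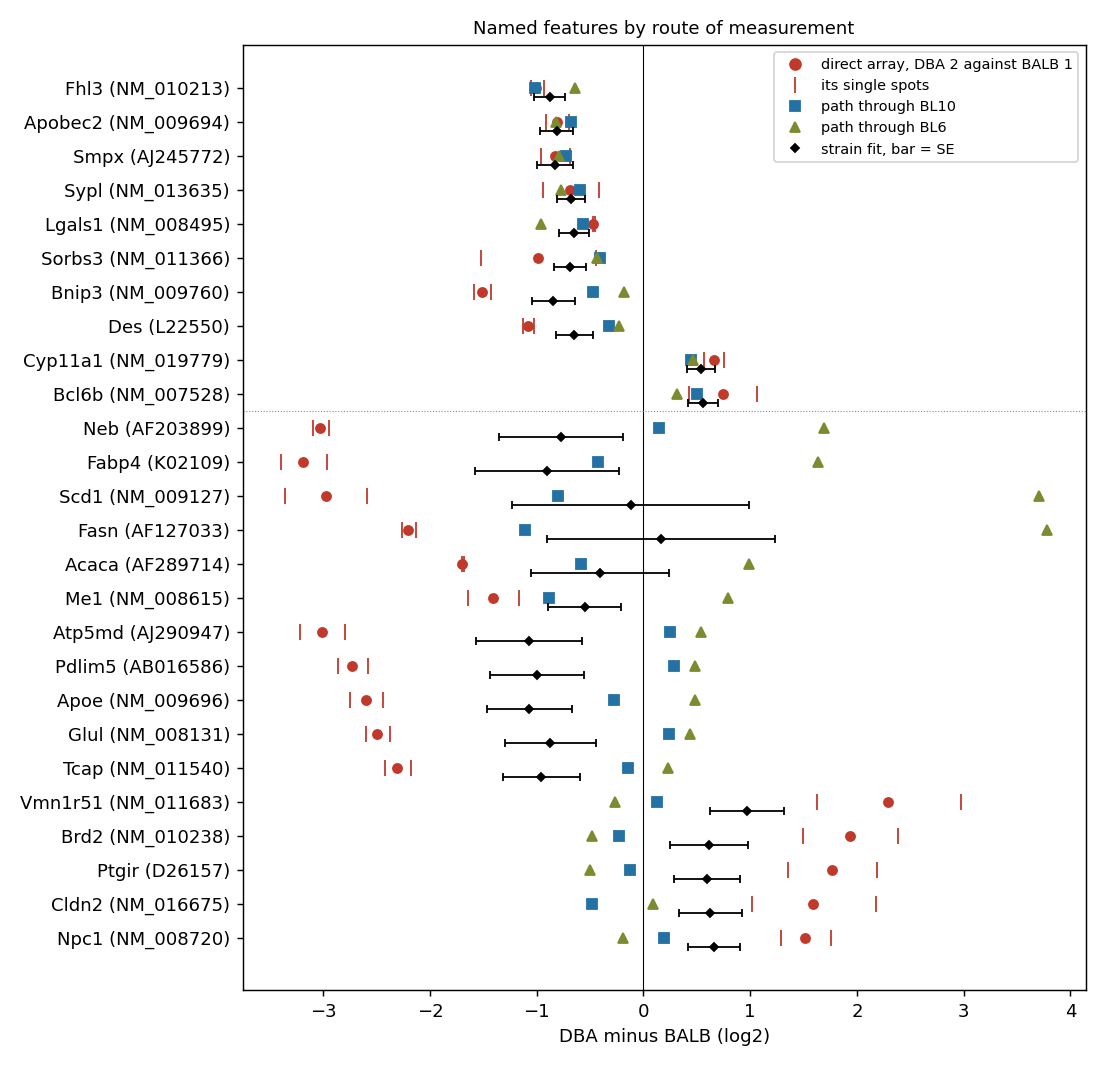
DBA minus BALB (x axis, log2) for 26 named features with their identifiers. Red circles are direct values, red ticks their single spots, blue squares the path through BL10, green triangles the path through BL6, and black diamonds the strain fit with its SE. Above the dotted line stand features of small p, where the routes lie together or share a sign, which the choice by p favours. Below it stand features with large direct values and lipid genes, where the paths lie apart from the direct value, for Scd1 and Fasn at 3.70 and 3.78 on the other side.

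Among the features with the highest direct values, Vmn1r51, a vomeronasal pheromone receptor, stood at 2.29, with spots at 1.63 and 2.97. Its other routes gave 0.13 and −0.27, and the fit 0.97 ± 0.35 (SE), which went to −0.040 without DBA 2. Brd2, a bromodomain protein that reads acetylated histones, stood at 1.94 directly and −0.23 through BL10. Ptgir, the prostacyclin receptor, stood at 1.76 and −0.12, and Cldn2, a claudin of tight junctions, at 1.59 and −0.48. Npc1, which exports cholesterol from lysosomes, stood at 1.52 and 0.19. Qk, Sec24b, Lsm4 and Gpx5 had direct values of 1.38 to 1.46 and lay between −0.14 and 0.23 through BL10. With no dye subtracted Npc1, Sec24b, Lsm4 and Gpx5 stood at 0.85, 0.89, 0.64 and 0.81, and with the dye from the fit Qk stood at 0.96. Tbca, a cofactor in tubulin folding, stood at 1.64 directly, but its ratio on the array was −0.06 before the dye effect of −1.70 was subtracted. Cldn2, Vmn1r51 and Ptgir stand close together in the numbering of the features, at 5412, 5422 and 5440, as does the low Dcn at 5411. In Cldn2 and Ptgir, as in Vmn1r51, the second spot was the larger, at 2.18 and 2.19 against 1.02 and 1.35. The part of place on the slide was not tested.

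By gene group, structural and metabolic genes were on the low side of the direct array. The gene lists were chosen with earlier results of these data known, so their shares are no independent evidence. In the Z-disc and M-band group 17 of 25 features were below 0 directly, with a median of −0.37, and 19 of 25 were below 0 through BL10, with a median of −0.12. The share below 0 over all features was 47.8% directly, with a median of 0.03. In the fit 9 of the 25 had an unadjusted p under 0.05, all lower in DBA, against 2.85% of all features. Besides Fhl3, Smpx, Tcap and Pdlim5 these included desmin (Des), the intermediate filament of the Z-disc, at −0.65 ± 0.17, filamin C (Flnc), an actin cross-linker, at −0.60 ± 0.19, and the chaperone Cryab, at −0.60 ± 0.21 (SE). Des stood at −1.08 directly and −0.32 through BL10. Without BL6 1 Flnc had a fitted value of −0.045 and Cryab of −0.24, and without DBA 2 Des had −0.31. Among the members the study itself discussed, myomesin (Myom1) of the M-band stood at −1.24 directly and −0.49 ± 0.23 (SE) in the fit. Actn2, the actinin that links thin filaments at the Z-disc, stood at −0.37 and −0.49 ± 0.22 (SE).

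In the fibre type and contractile group 14 of 20 features were below 0 directly, with a median of −0.33, and 11 of 20 through BL10, with a median of −0.06. The 4 features past −1 in both spots were the 4 of nebulin. Without subtracting the dye the median of this group was 0.07, so its direction depends on the dye. Tmod1, which caps the slow-growing end of thin filaments, stood at −0.84 directly, −0.24 through BL10 and −0.50 ± 0.18 (SE) in the fit. The calcium handling group, with 18 of 31 below 0 directly and a median of −0.09, also turned to 0.08 without the dye. Within it Jph2, which holds the membranes of the triad together, stood at −0.46 ± 0.15 in the fit. Camk2b, a calcium-dependent kinase, stood at 0.45 ± 0.15 and Pvalb, the calcium buffer of fast fibres, at 0.35 ± 0.14 (SE). Pvalb was above 0 on all 3 routes, at 0.34, 0.55 and 0.22.

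In the respiratory chain and TCA group the direct array and the path through BL10 lay on opposite sides of 0. There 37 of 45 features were below 0 directly, with a median of −0.52, while 37 of 45 were above 0 through BL10, with a median of 0.26. The fitted median was −0.07. At an unadjusted p under 0.05, 4 features were lower (8.89%, against 2.85% of all features) and 1 was higher (against 2.42%). That 1 was Atp5j, a coupling factor of the ATP synthase, at 0.72 ± 0.22 (SE), with 0.26 directly and 0.47 through BL10. Vdac3, a pore of the outer mitochondrial membrane, stood at −0.42 ± 0.14 (SE). In the glycolysis and glycogen group 34 of 39 were below 0 directly, with a median of −0.46, and 20 of 39 through BL10, with a median near 0. In the fit 7 of the 39 (17.9%) were lower at an unadjusted p under 0.05, against 2.85% of all features. Among them were Ldha, the muscle form of lactate dehydrogenase, at −0.51 ± 0.16, and Eno3, muscle enolase, at −0.46 ± 0.16 (SE). The direct medians of both groups stayed below 0 without the dye, at −0.42 and −0.53.

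**Figure D4:**
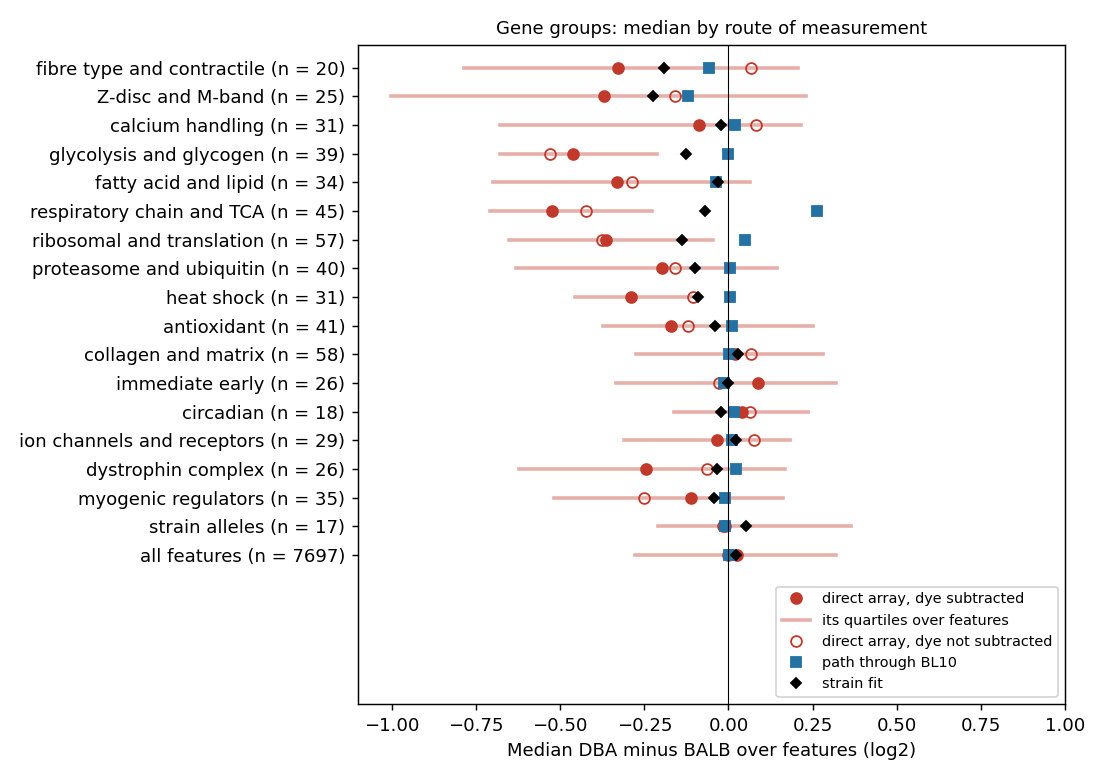
Median DBA minus BALB difference (x axis, log2) over the features of each gene group (y axis, n features) and over all features. Filled red circles are direct values with their quartiles as a bar, open red circles the direct array without dye subtraction, blue squares the path through BL10 and black diamonds the strain fit. The respiratory chain lies at −0.52 directly and at 0.26 through BL10, while the Z-disc and M-band group is below 0 on each.

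In the fatty acid and lipid group 23 of 34 features were below 0 directly, with a median of −0.33. Past −1 in both spots were 6, which is 17.6% against 1.61% of all features. Through BL10 19 of 34 were below 0, with a median of −0.04, and through BL6 9 of 34, with a median of 0.25. The fitted median was −0.03. At an unadjusted p under 0.05 in the fit, 1 feature was lower (2.94%) and 1 higher, against 2.85% and 2.42% of all features. Fabp3, the fatty acid binding protein of muscle itself, stood above 0 at 0.31 directly, 0.76 through BL10 and 0.39 ± 0.16 (SE) in the fit. In the ribosomal and translation group 44 of 57 were below 0 directly, with a median of −0.37, and 21 of 57 through BL10, with a median of 0.05. Its members went both ways in the fit, with Rps6, a protein of the small subunit, at 0.56 ± 0.15 and Rpl21, of the large subunit, at −0.55 ± 0.21 (SE). The heat shock group had a direct median of −0.29 and the proteasome and ubiquitin group one of −0.20, with both near 0 through BL10. Hspa8, the constitutive Hsc70 chaperone, stood against its group at 1.21 directly, 0.89 through BL10, −0.11 through BL6 and 0.75 ± 0.23 (SE) in the fit. Hspb8, a small heat shock protein, stood at −0.48 ± 0.15 (SE).

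Other groups lay near the median of all features or had mixed members. The antioxidant group had a direct median of −0.17, with Gpx3, the secreted glutathione peroxidase, at −2.07 directly and 0.05 through BL10. The dystrophin complex group had a direct median of −0.25. In it dysferlin (Dysf), which reseals the membrane, stood at −1.02 directly, −0.06 through BL10 and −0.43 ± 0.20 (SE) in the fit. The syntrophin Sntb2 stood at 0.34 ± 0.13 (SE) in the fit. Of the myogenic regulators, Mlf1 stood at −2.04 directly, −0.65 through BL10 and −0.99 ± 0.30 (SE) in the fit. In the same order, Mef2c, a transcription factor of muscle, stood at −1.51, −0.02 and −0.73 ± 0.24, and Myf6 at −0.71, −0.06 and −0.38 ± 0.15. Chrne, the epsilon subunit of the adult acetylcholine receptor, stood at 0.42 ± 0.14 (SE) and was above 0 on all 3 routes, but its direct spots were 1.16 and 0.03. The collagen and matrix group had a direct median of 0.02, with Col11a1 at 0.40 ± 0.15 (SE) in the fit. Car2, a carbonic anhydrase with known strain alleles, stood at 0.51 ± 0.19 (SE). The direct medians of the immediate early, circadian, ion channel and strain allele groups were 0.09, 0.04, −0.03 and −0.02. In the fit 3 of 18 circadian features (16.7%) were lower and 0 higher at an unadjusted p under 0.05, against 2.85% lower among all features. Only 4 features of the histocompatibility group were measured. Of these, 0 had an unadjusted p under 0.05 or passed the 10% rate by limma, against 5.26% and 0% of all features.

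Of the other genes that the study discussed, radixin (Rdx), which links actin to the membrane, stood at −1.69 directly, −0.02 through BL10 and −0.55 ± 0.31 (SE) in the fit. Cstb, an inhibitor of cathepsins, stood at −0.60 directly, with spots at −0.07 and −1.12, and 0.23 through BL10. Thbs4, a matrix thrombospondin, stood at 0.17 directly, 0.34 through BL10, 0.20 through BL6 and 0.22 ± 0.13 (SE) in the fit. In the quantitative RT-PCR of the study, Dysf, Cstb and Thbs4 did not differ between the strains and served as reference genes. Myom1 and Tmod1 were lower in BL6 than in the other strains by that method. Of the genes the study discussed, Neb, Actn2, Myom1, Rdx and Tmod1 were chosen for their levels on these same arrays, so their values are no independent evidence of a direction.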

How the data were processed

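Total RNA of quadriceps, 1 μg per labelling, was hybridised by the authors to spotted oligonucleotides of 65 bases, each in duplicate. GenePix Pro 3.0 read the spots, local background was taken off and VSN normalized the arrays. What the authors deposited is the natural log of the ratio of Cy5 to Cy3 for each spot, a scale and direction read from the VSN method and the dyes in the labels. No genome build was given for the array data, and the promoter windows are those of GRCm38.p6.

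After averaging duplicate spots and the 80 copies of the control oligonucleotide, values were put on the log2 scale with the median of each array at 0. Of 7776 features, 6831 had 1 symbol, 7 several and 938 none, 6801 matched RefSeq, and 6752 of those tested were named. The strain fit used limma 3.58.1 in R 4.3.3 with strain terms, a dye term per gene and the animal as a random effect (ratio of animal to array variance 0.446), and had 3 residual degrees of freedom. The Benjamini-Hochberg adjustment ran over all 7697 features. Named were features past the 10% rate, the 10 highest and 10 lowest direct values with both spots past 1, up to 4 features per gene list by p, and genes discussed in the study. Apobec2, Sypl, Lgals1, Sorbs3, Bnip3, Cyp11a1, Bcl6b, Adipoq, Hba-a1, Fasn, Acaca, Nme2 and Fhit were added with their values in view. The members and lists were chosen with earlier results of these data known. The steps were tested on simulated data. Plots were made with matplotlib 3.10.9 (Python 3.11.15). The alternatives changed the centring, array spread, normalization, spots, dye, covariance, test, identical arrays and animals.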

Additional observations from a re-analysis of the deposited data

How the results depend on the processing

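The count at the false discovery rate of 10% was 0 in all alternatives that kept every animal, except that it was 1, lower in DBA, when the values common to the identical arrays were entered as BALB 1 against CBA 2. That 1 was the unnamed feature with the smallest p, at −1.34 (adjusted p = 0.0887 from limma). At an unadjusted p under 0.05 the count of 405 went to 56 without a dye term, 196 with all 10 arrays as labelled and 265 when the common values stood for BALB 1 against CBA 2. Leaving out 1 animal gave 0 to 2735 features at the 10% rate and 219 to 3057 at an unadjusted p under 0.05. The higher counts came without BALB 2 (2735), without DBA 1 (1828), without BL10 1 or BL10 2 (14 each) and without BL6 1 (11). Each of these fits had 1 residual degree of freedom, so the counts say little of stability. Without BALB 1 or DBA 2 the direct array drops out, and the count was 0.

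On the direct array the 162 features past 1 in both spots became 48 with the dye from the strain fit, 286 with no dye subtracted, 53 with array spreads made equal and 277 by the mean of the spots alone. The path through BL10 went from 13 to 23 features with equal spreads, an alternative chosen after seeing the data. The fitted median of the fibre type and contractile group went from −0.19 to −0.032 with all 10 arrays as labelled. Tbca had −0.063 with no dye subtracted. Fhit turned to 0.12 with equal spreads and to 0.035 with a replicate block. Fasn, at 0.17 in the fit, turned to −0.073 without a dye term, −0.14 with all 10 arrays, −0.053 with the common values as BL6 2 against CBA 1 and −0.16 as BALB 1 against CBA 2. Leaving out 1 animal turned the fitted sign of some genes, with ranges of −2.07 to 0.17 for Gpx3, −1.77 to 0.22 for Dcn, −1.27 to 0.12 for Col3a1, −1.02 to 0.030 for Dysf, −1.41 to 0.022 for Me1, −1.24 to 0.055 for Myom1, −1.69 to 0.30 for Rdx, −0.60 to 0.31 for Cstb, −1.70 to 0.55 for Acaca, −1.71 to 2.49 for Fhit, −1.22 to 2.69 for Nme2 and −2.20 to 1.76 for Fasn. The lower bound of each came without BALB 2 and equals the direct value. The cause was not tested. Fhl3, Apobec2, Smpx, Sypl and Lgals1 stayed below 0 under all alternatives run. The number of the animal, 1 or 2 in each strain, entered as a replicate block after the data were seen, gave 0 features at the 10% rate and 347 at an unadjusted p under 0.05. The labels do not say that the numbers mark anything shared between strains, and with 8 arrays the pairing of animals could not be checked. Spot brightness over background, which limits weak genes, was not used here.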
